A study of Mus musculus with 24 samples.

Results

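The genes described here are 37 non-collagen genes of the extracellular matrix and of the stromal cells that make it, in mice that lack Prxl2a. They were taken by symbol from a table of 19015 genes, and all 37 symbols were found once. The genes were chosen with earlier results of these data known, so their shares against all genes are descriptions. By role, 8 are adhesive glycoproteins (Fn1, Postn, Tgfbi, Thbs1, Thbs2, Sparc, Fstl1, Tnxb), 4 are proteoglycans (Dcn, Lum, Bgn, Vcan) and 9 belong to elastic fibres and microfibrils (Eln, Fbn1, Mfap4, Mfap5, Fbln1, Fbln2, Efemp1, Lox, Loxl1). A further 4 are laminin chains (Lama2, Lama4, Lamb1, Lamc3), 6 are matrix proteases and their inhibitors (Mmp2, Mmp3, Mmp14, Timp1, Timp2, Timp3) and 6 mark the surface of stromal cells (Pdgfra, Pdgfrb, Cd34, Thy1, Dpp4, Pi16). Female mice aged 12 weeks were either Prxl2a knockout (KO) or wildtype (WT), and all had been perfused with PBS before their tissues were frozen. RNA was sequenced from inguinal adipose tissue (IAT, a subcutaneous white fat depot), dorsal brown adipose tissue (BAT), liver and brain, with 3 KO and 3 WT libraries per tissue, 24 in all. The labels name no strain, no knockout allele and no age other than 12 weeks, and the design text states 3 mice per genotype. The comparison of KO with WT within each tissue asks which transcripts differ when Prxl2a, which encodes a peroxiredoxin-like protein, is absent.

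As background, fibroblasts and adipose progenitor cells secrete a matrix of collagen fibrils on which fibronectin, small leucine-rich proteoglycans and fibrillin microfibrils are laid down. Lysyl oxidases cross-link elastin and collagen, laminins form the basement membrane around fat, muscle and endothelial cells, and matrix metalloproteinases and their tissue inhibitors (TIMPs) set how fast the network turns over. In liver most of these genes are products of hepatic stellate cells and portal fibroblasts, while plasma fibronectin comes from hepatocytes.

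Of the 37 genes, 23 had an entry in the RefSeq promoter table for GRCm38.p6, which holds 250 bases before and 50 bases after a transcript start. The stretches of 150 bases below belong to Timp2, whose liver transcript was called lower in KO, to Mmp14, whose KO change differed between tissues, and to Tnxb, Efemp1 and Lama2, whose KO libraries lay below all WT libraries in IAT, BAT and liver. Each is written 5′ to 3′ on the strand of the gene, and capitals mark matches, on either strand, to the CCAAT box (CCAAT), the GC box (GGGCGG) or the AP-1 site (TGANTCA). They lie at chr11:118355507-118355656 (Timp2, minus strand, 245 to 96 bases before the start), chr14:54431448-54431597 (Mmp14, plus strand, 150 to 1 bases before), chr17:34670385-34670534 (Tnxb, plus strand, 150 to 1 bases before), chr11:28853054-28853203 (Efemp1, plus strand, 151 to 2 bases before) and chr10:27616943-27617092 (Lama2, minus strand, 150 to 1 bases before). Not every transcript start used here is the outer end of its gene. By the RefSeq gene spans, the Tnxb stretch lies inside the gene (chr17:34660453-34719815), and so does that of Lama2 (chr10:26981285-27617191). The Efemp1 stretch runs past the first base of the gene at chr11:28853154.
Timp2: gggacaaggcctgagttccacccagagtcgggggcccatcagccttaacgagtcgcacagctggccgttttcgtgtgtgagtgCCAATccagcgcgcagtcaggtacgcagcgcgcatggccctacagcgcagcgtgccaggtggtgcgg
Mmp14: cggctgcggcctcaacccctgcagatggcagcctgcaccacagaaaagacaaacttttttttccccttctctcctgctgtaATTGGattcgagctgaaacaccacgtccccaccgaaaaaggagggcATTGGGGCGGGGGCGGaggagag
Tnxb: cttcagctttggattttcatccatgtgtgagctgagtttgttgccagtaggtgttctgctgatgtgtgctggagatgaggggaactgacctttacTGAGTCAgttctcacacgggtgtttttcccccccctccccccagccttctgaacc
Efemp1: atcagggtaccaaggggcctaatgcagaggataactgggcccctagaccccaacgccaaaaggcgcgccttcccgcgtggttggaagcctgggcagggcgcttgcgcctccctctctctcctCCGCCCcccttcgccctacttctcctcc
Lama2: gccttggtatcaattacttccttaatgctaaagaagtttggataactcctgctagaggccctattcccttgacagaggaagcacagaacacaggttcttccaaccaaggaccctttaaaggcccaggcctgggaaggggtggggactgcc

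Timp2 held 1 CCAAT box, Mmp14 held 2 CCAAT boxes and 2 GC boxes, with 1 CCAAT box overlapping a GC box, Tnxb held 1 AP-1 site, Efemp1 held 1 GC box and Lama2 held no match in its stretch. Over the whole 300-base windows and both strands, a gene was counted if any of its windows held a match. The GC box stood in 14 of the 23 member genes (60.9%), against 38.2% of all 27025 genes in the promoter table. The CCAAT box stood in 8 (34.8%, against 41.1%), the AP-1 site in 3 (13.0%, against 8.97%) and the TATA box (TATAAA) in 4 (17.4%, against 15.7%). These matches describe letters only and were not tested. The promoter of Lamc3 was not in the table.

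Library totals ran from 12327459 to 18257788 expected counts, and Prxl2a averaged 4.19% of its WT level in KO IAT, 4.56% in KO BAT, 1.98% in KO liver and 5.54% in KO brain. In the IAT, KO replicate 3 stood apart from every other library. It lay between KO replicates 1 and 2 for 99.7% of the 3565 genes that differed over 2-fold between those libraries, against 0.635% to 78.6% in the other 23 libraries tested in the same way. Its counts were fitted best as 50% of KO replicate 1 and 50% of KO replicate 2, with a median chi-square of 0.627 per gene where counting noise alone gives 0.455, and with values of 1.37 to 9.82 in the other libraries. Of the 36 members with at least 100 counts over the 3 KO libraries, 32 lay between KO replicates 1 and 2, at a median distance of 0.05 on the log2 scale from their mean. KO replicate 3 of the IAT thus lay close to an even mixture of KO replicates 1 and 2, by little more than counting noise, so the IAT KO group may hold fewer than 3 independent samples. IAT values without it are given beside the counts over the members, the medians by role and part of the single genes.

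**Figure D1:**
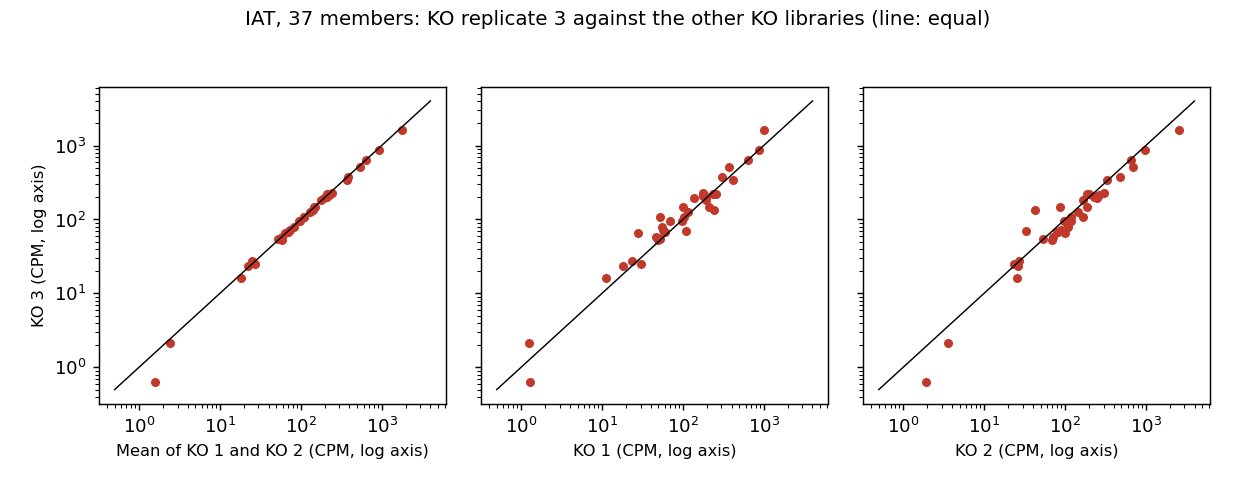
Level of the 37 members in IAT KO replicate 3 (vertical axis, CPM, log scale) against the mean of KO replicates 1 and 2, and against KO replicate 1 and KO replicate 2 alone (horizontal axes, CPM, log scale). The points follow the line of equality closely in the left panel, at a median distance of 0.05 on the log2 scale over 36 members, and scatter around it in the other panels.

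The IAT libraries also differed in transcripts of other tissues. Lymphocyte markers, with 17 of 18 listed genes in the table and 15 of 15 tested higher in KO, summed to 2989, 8.46 and 1534 CPM (counts relative to library size, scaled within each tissue) in KO replicates 1, 2 and 3, against 13.9 to 27.5 CPM in the WT libraries, and skeletal muscle markers (16 of 16 in the table, 12 of 12 tested lower in KO) to 29.7 to 87.8 CPM in KO libraries, against 1400, 4797 and 45.1 CPM in WT replicates 1, 2 and 3. Adipocyte markers (10 of 10, 5 lower in KO) summed to 13608, 41920 and 25418 CPM in KO replicates 1, 2 and 3, against 22116 to 30679 CPM in WT libraries. Macrophage markers (16 of 16, 12 of 15 tested lower in KO) summed to 1212 to 2234 CPM in KO libraries, against 1736, 4521 and 5792 CPM in WT replicates 1, 2 and 3. Clec4f, a marker of liver macrophages, was at most 0.066 CPM in all 6 IAT libraries. Mesothelial and mammary epithelial markers were also lower in KO, all 4 and all 8 of those tested, at 228 to 365 CPM in KO libraries against 355 to 583 CPM in WT libraries for the mesothelial sum. The mesothelial and mammary lists share Krt8, Krt18 and Krt19, so their counts are not separate results. Of the mesothelial markers, Msln was at most 0.29 CPM and Wt1 was at 0 in all 6 IAT libraries. The part of these transcripts in the results on the members was not tested.

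In the WT tissues the members had their highest levels in IAT. Per transcript length, as the authors' TPM (a length-scaled share of the library's transcripts), 34 of the 37 were highest in WT IAT, led by Dcn (decorin, a small proteoglycan that binds collagen fibrils) at 1989 ± 527 TPM and Sparc (a collagen-binding glycoprotein) at 1620 ± 126 TPM (SD, n = 3). The exceptions were Fn1 (fibronectin), at 328 ± 21.3 TPM in liver and 309 ± 102 TPM in IAT, and Vcan (versican, a large proteoglycan) and Thy1 (a surface glycoprotein of fibroblasts, T cells and neurons), which were highest in brain at 12.0 ± 4.31 TPM and 768 ± 42.4 TPM. Fn1 in liver and in IAT did not differ beyond their spread. All 37 members differed across the 4 WT tissues (edgeR quasi-likelihood F-test, adjusted p under 0.05), as did 96.1% of the 15810 genes tested, so that share is no property of the members. Between BAT and IAT, 33 members were called lower in WT BAT, where the background was 30.2% of genes. The 4 not called were Thbs1 at 3.14 ± 0.70 TPM in BAT and 6.64 ± 0.71 TPM in IAT, Lamc3 at 3.24 ± 0.52 and 5.83 ± 0.18 TPM, Timp3 at 143 ± 6.06 and 213 ± 25.2 TPM, and Pdgfrb at 15.96 ± 1.39 and 21.6 ± 2.87 TPM. The test used scaled counts, not TPM. On that scale the log2 difference, BAT minus IAT, was -0.65 (SE 0.36), -0.41 (SE 0.20), -0.14 (SE 0.11) and 0.01 (SE 0.16) in the same order. In WT liver Vcan averaged 0.020 TPM, Pi16 0.027 TPM, Mfap5 0.043 TPM and Lox 0.097 TPM.

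**Figure D2:**
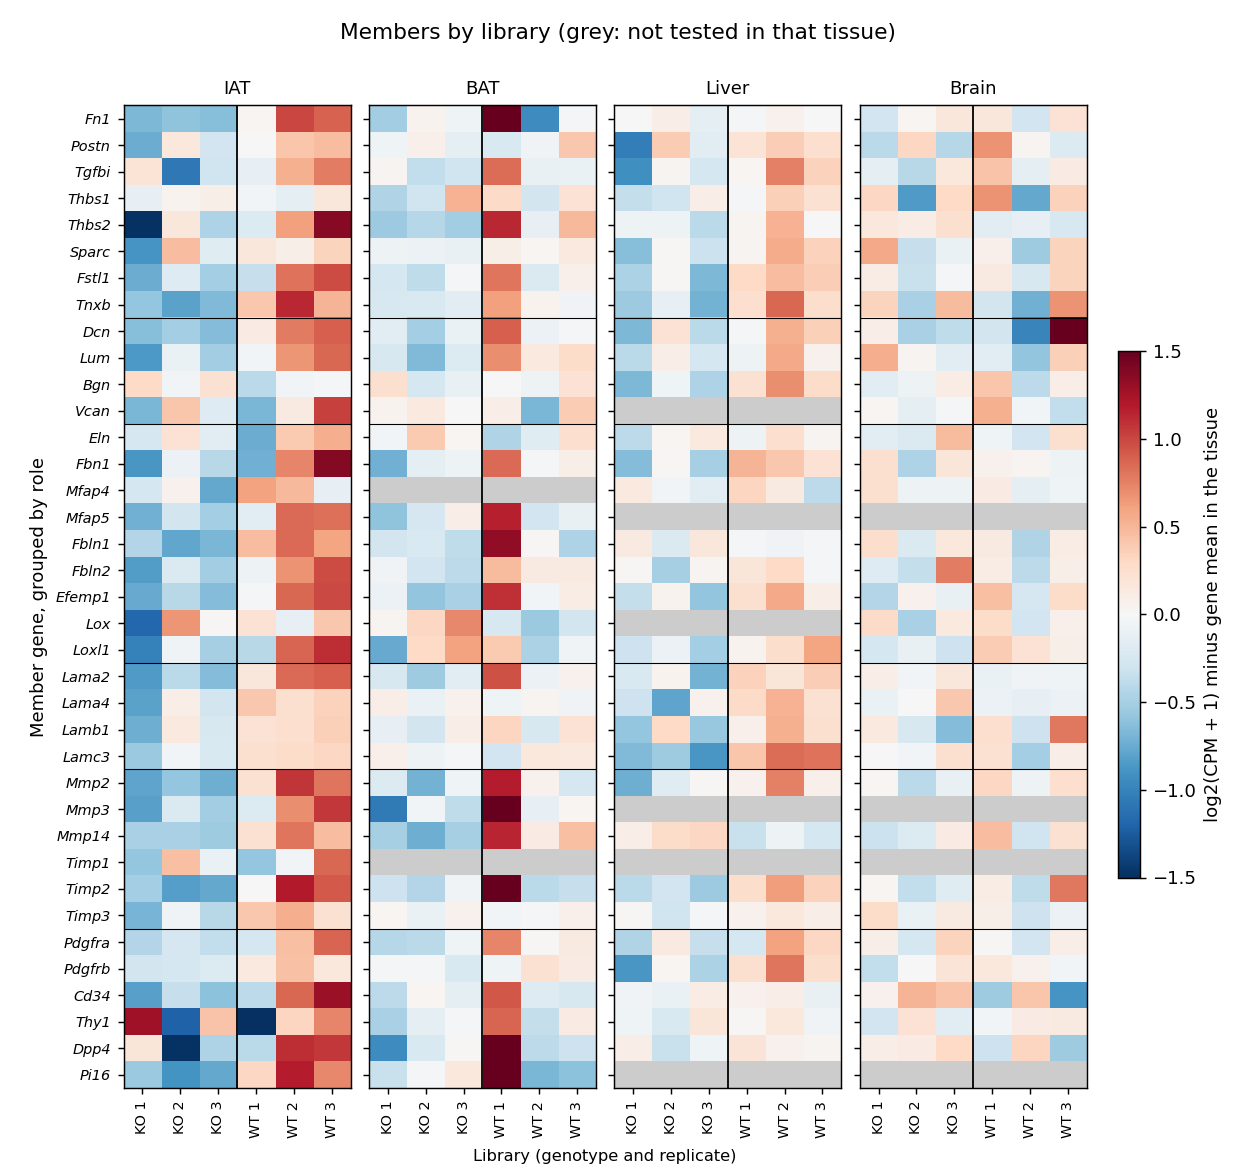
Level of each member in every library, as log2(CPM + 1) minus the mean of that gene over the 6 libraries of the tissue, with KO libraries left of WT libraries and members grouped by role (rows). In IAT the KO columns are mostly blue (below the gene mean) and WT replicates 2 and 3 mostly red, with WT replicate 1 above the mean for 17 of 37 members; in liver the WT columns are mostly red and KO replicates 1 and 3 mostly blue, with KO replicate 2 above the mean for 15 of 31; in BAT WT replicate 1 carries most of the red, and in brain no such split is seen. Grey rows were too low to be tested.

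In the IAT most matrix genes were at lower levels in KO libraries, but none passed the test over all genes. Of the 37 members, 34 had a lower mean in KO, with a median log2 fold change (KO over WT) of -1.03, against 0.02 over all 14097 genes tested, of which 48.3% were lower. The KO libraries all lay below the lowest WT library for 19 members, against a background of 9.65% of all genes, and for 19 members against 10% without KO replicate 3. Such a count cannot fall when a library is left out, so it is read only against the share of all genes. For no member did all KO libraries lie above all WT libraries, against 8.81% of genes. By edgeR no member and no gene was called (0% of genes), nor was the deleted gene Prxl2a itself (log2 fold change -4.58, adjusted p = 0.0912), with 22 members lower and 0 higher at an unadjusted p under 0.05, where 8.04% of all genes were lower and 7.75% higher at that p. Without KO replicate 3, 15 members were lower at that p, against 3.99% of genes, 35 were lower in the mean and the median was -1.01. In such bulk samples fewer stromal cells and less RNA per stromal cell cannot be told apart.

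The 8 members with the smallest p in IAT came from 5 of the 6 roles. Fbln1 (fibulin 1, which binds elastic fibres and basement membranes) had 30.3, 23.6 and 25.3 CPM in KO replicates 1 to 3, against 57.5, 75.6 and 62.9 CPM in WT replicates 1 to 3. Its log2 fold change was -1.31 (SE 0.17, edgeR adjusted p = 0.128), and it was -1.27 with KO replicate 3 left out, where the adjusted p was 0.669 for each of the 8. Tnxb (tenascin X, a glycoprotein that spaces collagen fibrils) had 194, 167 and 184 CPM in KO libraries, against 387, 638 and 417 CPM in WT libraries. The log2 fold change of Tnxb was -1.41 (SE 0.23, adjusted p = 0.175, with -1.41 when KO replicate 3 was left out). For both genes the groups stood well apart, with the highest KO library below the lowest WT library.

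The protease Mmp2, its activator Mmp14 and their inhibitor Timp2 were also in this set. Mmp14 (a membrane-bound metalloproteinase that activates pro-MMP2) had 98.9, 98.6 and 95.3 CPM in KO libraries, against 163, 242 and 192 CPM in WT libraries (log2 fold change -1.03, SE 0.18, adjusted p = 0.175, with -1.01 when KO replicate 3 was left out). Mmp2 (gelatinase A) had 196, 226 and 203 CPM in KO libraries, against 395, 710.0 and 593 CPM in WT libraries (-1.44, SE 0.25, adjusted p = 0.175, and -1.42 without it). Their shared inhibitor Timp2, which also takes part in the activation of pro-MMP2, had 411, 331 and 346 CPM in KO libraries, against 587, 1338 and 1118 CPM in WT libraries (-1.48, SE 0.33, adjusted p = 0.224, and -1.45 without it). All 3 were lower in every KO library than in any WT library, though none was called.

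The other 3 of the 8 were a progenitor gene, a laminin chain and a microfibril-associated protein. Pi16 (a marker of universal fibroblasts in the adventitia) had 255, 200.1 and 219 CPM in KO libraries, against 464, 848 and 619 CPM in WT libraries, with the lowest log2 fold change of the members at -1.52 (SE 0.26, adjusted p = 0.175, with -1.499 when KO replicate 3 was left out). Lama2 (the laminin chain of muscle and nerve basement membranes) had 59.3, 80.8 and 68.1 CPM in KO libraries, against 121, 194 and 200.5 CPM in WT libraries (-1.31, SE 0.24, adjusted p = 0.186, and -1.29 without it). Efemp1 (fibulin 3) had 116, 147 and 125 CPM in KO libraries, against 192, 357 and 391.6 CPM in WT libraries (-1.28, SE 0.29, adjusted p = 0.224, and -1.25 without it). In all 8 genes WT replicate 1 was the lowest WT library, as it was for 31 of the 37 members. Outside these 8, Dcn, the member with the highest TPM in WT IAT, had 886, 971 and 883 CPM in KO libraries, against 1512, 2371 and 2584 CPM in WT libraries (-1.24, SE 0.28, adjusted p = 0.224, with -1.21 when KO replicate 3 was left out), and its groups did not overlap.

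By role, the elastic fibre genes (9 of 9 lower, median log2 fold change -1.10), the proteases and inhibitors (6 of 6, -1.07) and the laminin chains (4 of 4, -0.59) were lower without exception. The adhesive glycoproteins (7 of 8, median -0.90), the proteoglycans (3 of 4, -0.72) and the surface markers (5 of 6, -0.99) each had 1 member that was not. Those 3 members were Thbs1 (thrombospondin 1) at 0.01 (SE 0.15), Bgn (biglycan) at 0.32 (SE 0.17) and Thy1 at 0.37 (SE 0.75). When KO replicate 3 was left out these were -0.03, 0.29 and 0.40, and the medians by role ran from -1.09 (elastic fibre genes) to -0.59 (laminin chains). Thy1 had 243, 42.5 and 134 CPM in KO replicates 1 to 3, against 33.9, 125 and 167 CPM in WT replicates 1 to 3. Its high KO libraries were those with high lymphocyte markers, and the groups overlapped. The share of Thy1 that comes from lymphocytes was not tested. The adhesive glycoprotein Sparc had 1012, 2577 and 1640 CPM in KO libraries, against 2101, 1989 and 2360 CPM in WT libraries (log2 fold change -0.30, SE 0.38, adjusted p = 0.689, with -0.26 when KO replicate 3 was left out), and its highest KO library was the one with the highest adipocyte markers.

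Other tools gave other counts for the IAT. DESeq2 called 17 members lower among 987 genes (7%), but 9 members among 227 genes (1.59%) without KO replicate 3. The edgeR fit of all 24 libraries called 20 members among 2573 genes (15.9%), but 6 members among 1136 genes (6.95%) without KO replicate 3. In fits of 5 IAT libraries, edgeR called 10 members among 1760 genes (12.1%) without KO replicate 2 and 9 members among 192 genes (1.32%) without WT replicate 1. The first of these fits keeps KO replicates 1 and 3, which are not independent if KO replicate 3 is a mixture, so that their spread may be too small.

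**Figure D3:**
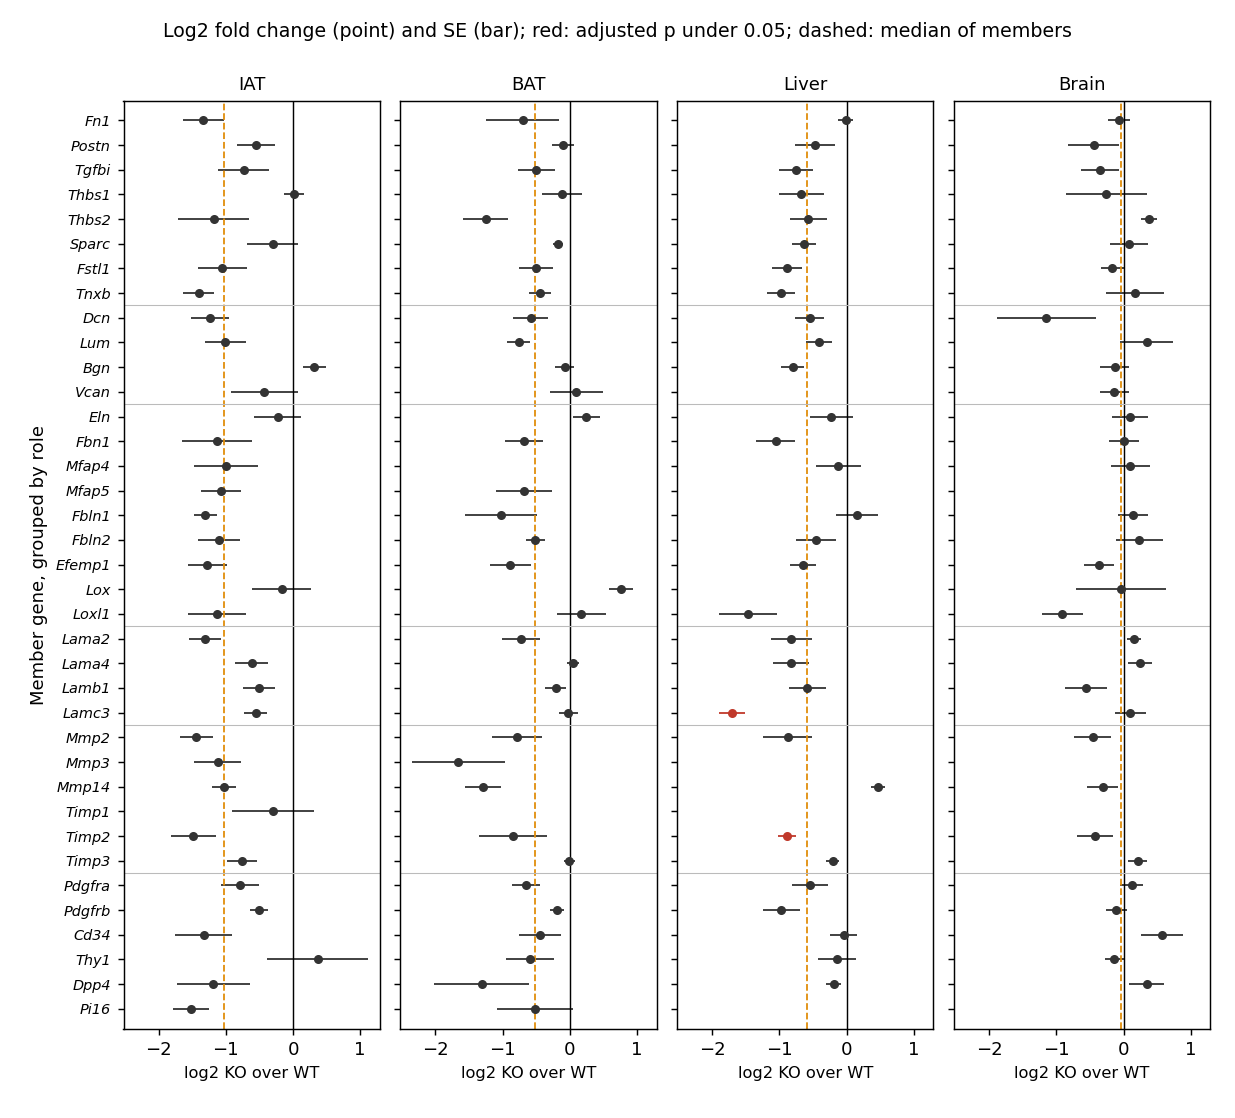
Log2 fold change of KO over WT (horizontal axis, points) with its standard error (bars) for each member, grouped by role (rows), in IAT, BAT, liver and brain. Red marks an adjusted p under 0.05, which only Lamc3 and Timp2 in liver reached, and the dashed line is the median of the members in that tissue, from -1.03 in IAT to -0.04 in brain.

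In the BAT the same direction was seen at smaller size, and it rested in good part on 1 WT library. Of the 35 members tested (Mfap4 and Timp1 were too low), 30 had a lower mean in KO, with a median log2 fold change of -0.51, against -0.01 over all 12588 genes, of which 51% were lower. No member was called, where edgeR called 68 genes (0.54%), 0.389% of genes being called higher and 0.151% lower. At an unadjusted p under 0.05, 11 members were lower and 1 was higher, against 8.6% and 9.91% of all genes. The KO libraries all lay below the lowest WT library for 11 members (background 11.3%) and above for 1 member, Lox (background 14.3%).

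WT replicate 1 of the BAT was the highest of the 6 libraries for 23 of the 35 members. The skeletal muscle markers (16 of 16 in the table) summed to 77.7 to 193 CPM in KO libraries, against 2289, 69.8 and 91.1 CPM in WT replicates 1, 2 and 3, and the macrophage markers (16 of 16) to 167 to 217 CPM in KO libraries, against 482, 176 and 207 CPM in WT replicates 1, 2 and 3. All 13 tested muscle markers and all 13 tested macrophage markers were lower in KO, and the macrophage marker Clec4f was at 0 in all 6 libraries. The part of these cells in the BAT results was not tested. Without WT replicate 1 the median of the members was -0.13, 25 of 35 were lower, 8 were lower and 2 higher at an unadjusted p under 0.05 (7.49% and 7.42% of genes), and edgeR called 37 genes and no member. Pi16, at -0.52 (SE 0.57) over all 6 libraries, was then at 0.62 (SE 0.15, adjusted p = 0.175).

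The smallest p in BAT belonged to Mmp14, with 9.37, 7.80 and 9.35 CPM in KO libraries, against 31.2, 14.9 and 19.0 CPM in WT libraries. Its log2 fold change was -1.30 (SE 0.27, adjusted p = 0.0835), and -0.94 without WT replicate 1 (SE 0.17, adjusted p = 0.0967). Lum (lumican, a keratan sulfate proteoglycan of collagen fibrils) had 48.3, 35.9 and 49.5 CPM in KO libraries, against 93.7, 63.7 and 69.6 CPM in WT libraries (-0.76, SE 0.18, adjusted p = 0.107, and -0.58 without WT replicate 1). In both genes all KO libraries lay below all WT libraries, and WT replicate 1 was the highest WT library.

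Lox (lysyl oxidase, which cross-links collagen and elastin) went the other way from most members. Of the same role, Eln at 0.25 (SE 0.20) and Loxl1 at 0.17 (SE 0.36) were also higher in the mean, with groups that overlapped. Lox had 30.8, 37.2 and 49.6 CPM in KO libraries, against 25.1, 19.9 and 24.6 CPM in WT libraries, with a log2 fold change of 0.76 (SE 0.18, adjusted p = 0.116, and 0.81 without WT replicate 1). No other member had all its KO libraries above its WT libraries in BAT, and Lox was not called by edgeR.

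The next 5 genes by p in BAT were Thbs2, Fbln2, Pdgfra, Efemp1 and Tnxb. Thbs2 (thrombospondin 2) had 4.19, 4.63 and 4.27 CPM in KO libraries, against 15.6, 5.94 and 9.63 CPM in WT libraries (-1.25, SE 0.33, adjusted p = 0.140, and -0.84 without WT replicate 1). Fbln2 (fibulin 2) had 23.1, 19.5 and 18.05 CPM in KO libraries, against 33.6, 26.4 and 26.5 CPM in WT libraries (-0.51, SE 0.14, adjusted p = 0.144, and -0.39 without it). Pdgfra (a receptor of platelet-derived growth factor that marks fibroblasts and progenitors) had 15.9, 16.2 and 20.7 CPM in KO libraries, against 36.9, 22.0 and 24.04 CPM in WT libraries (-0.65, SE 0.21, adjusted p = 0.186, and -0.39 without it). In these genes all KO libraries lay below all WT libraries, and WT replicate 1 was the highest of the WT libraries.

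Efemp1 had 23.02, 15.997 and 17.2 CPM in KO BAT libraries, against 53.6, 23.8 and 26.5 CPM in WT libraries (-0.88, SE 0.31, adjusted p = 0.211, and -0.43 without WT replicate 1). Tnxb had 75.6, 76.3 and 79.8 CPM in KO libraries, against 137, 92.9 and 85.9 CPM in WT libraries (-0.45, SE 0.17, adjusted p = 0.228, and -0.21 without it). By role, all 8 adhesive glycoproteins, all 5 tested proteases and inhibitors and all 6 surface markers were lower, with medians of -0.47, -0.85 and -0.56, against 3 of 4 proteoglycans, 5 of 8 elastic fibre genes and 3 of 4 laminin chains, with medians of -0.33, -0.60 and -0.12. The lowest log2 fold change in BAT was that of Mmp3 (stromelysin 1, a secreted metalloproteinase) at -1.66 (SE 0.69, adjusted p = 0.259), from 0.49, 2.03 and 1.39 CPM in KO libraries, against 8.37, 1.88 and 2.19 CPM in WT libraries, and it was -0.64 when WT replicate 1 was left out. Timp2, with 44.97, 40.8 and 53.8 CPM in KO libraries, against 165, 42.2 and 43.9 CPM in WT libraries, was at -0.85 (SE 0.50), but at 0.11 when that library was left out. In both genes only WT replicate 1 stood above the range of the KO libraries by a wide margin. DESeq2 called 5 members (Efemp1, Lox, Lum, Mmp14 and Thbs2) among 467 genes (4.12%). It called 3 (Lox, Lum and Mmp14) among 295 genes (2.63%) without WT replicate 1.

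In the liver 2 members fell in KO, the laminin chain Lamc3 and the protease inhibitor Timp2, and most others were lower without passing. Of the 31 members tested (Vcan, Mfap5, Lox, Mmp3, Timp1 and Pi16 were too low), 29 had a lower mean in KO, with a median log2 fold change of -0.59, against -0.0045 over all 12331 genes, of which 51% were lower. The edgeR test called 137 genes (1.11%), with 0.535% of genes called lower and 0.576% higher. The KO libraries all lay below the lowest WT library for 15 members (background 11%) and above for 1 member, Mmp14 (background 10.6%). At an unadjusted p under 0.05, 15 members were lower and 1 higher, against 8.86% and 7.27% of genes.

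Lamc3 (laminin γ3; RefSeq chromosome 2, 31887281 to 31949083, GRCm38.p6) had 2.51, 2.82 and 2.03 CPM in KO livers, against 6.41, 8.88 and 8.73 CPM in WT livers. These values rested on 44, 49 and 36 counts in KO libraries, against 111, 172 and 150 counts in WT libraries. The KO livers lay far below the WT livers, at 30.6% of the WT mean. The fall of Lamc3 was -1.71 as a log2 fold change (SE 0.19, adjusted p = 0.00419 by edgeR). An exon of Lamc3 overlaps one of Gm13441 on the opposite strand, and the sources used here do not state whether counting used the strand.

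Timp2 (chromosome 11, 118301061 to 118355411) had 11.2, 12.3 and 10.1 CPM in KO livers, against 18.4, 24.05 and 19.6 CPM in WT livers, and it fell by 0.89 (SE 0.13, adjusted p = 0.0162). The groups did not overlap, but the adjusted p was 0.0569 without WT replicate 2, 0.0596 without KO replicate 1 and 0.507 in the fit of all 24 libraries. Mmp14, the activating protease that works with TIMP2, was the 1 member above WT in every KO liver, at 45.1, 51.1 and 52.5 CPM, against 33.0, 39.7 and 34.7 CPM in WT livers (log2 fold change 0.47, SE 0.10, adjusted p = 0.0739). Mmp14 was called by DESeq2 (adjusted p = 0.0122) and without a filter on low counts (adjusted p = 0.0442). It was not alone in this. DESeq2 also called Lamc3, Timp2, Bgn, Fstl1, Pdgfrb, Sparc, Tgfbi and Tnxb, all lower, among 402 genes (3.26%). The fit without a filter also called Lamc3, Timp2, Bgn and Tnxb, all lower, among 218 genes (1.34%).

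The other members with small p in liver were matrix glycoproteins and the proteoglycan Bgn. Tnxb had 12.5, 17.1 and 11.02 CPM in KO livers, against 22.4, 34.7 and 22.6 CPM in WT livers (-0.97, SE 0.21, adjusted p = 0.0740). Bgn had 64.9, 99.6 and 75.1 CPM in KO livers, against 122, 169 and 127 CPM in WT livers (-0.80, SE 0.17, adjusted p = 0.0741). Both had all KO livers below all WT livers, Bgn being the more abundant by far.

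Fstl1 (follistatin-like 1, a secreted glycoprotein) had 3.02, 4.65 and 2.49 CPM in KO livers, against 5.84, 6.71 and 6.23 CPM in WT livers (-0.89, SE 0.22, adjusted p = 0.108). Fbn1 (fibrillin 1, the core of microfibrils) had 1.08, 2.299 and 1.29998 CPM in KO livers, against 3.64, 3.30 and 2.79 CPM in WT livers (-1.06, SE 0.29, adjusted p = 0.127), from 19 to 40 counts in KO libraries and 48 to 64 counts in WT libraries. Sparc had 26.8, 42.9 and 33.6 CPM in KO livers, against 43.7, 62.7 and 54.3 CPM in WT livers (-0.64, SE 0.18, adjusted p = 0.135). In these 3 genes the highest KO liver was replicate 2, and it came within 1 CPM of the lowest WT liver for Fbn1 and Sparc.

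By role in liver, all 8 adhesive glycoproteins (median -0.66), all 3 tested proteoglycans (-0.55), all 4 laminin chains (-0.83) and all 5 tested surface markers (-0.19) were lower, against 6 of 7 elastic fibre genes (-0.45) and 3 of 4 proteases and inhibitors (-0.54). The exceptions were Mmp14 and Fbln1 at 0.15 (SE 0.31). The lowest value after Lamc3 was that of Loxl1 (a lysyl oxidase that acts on elastin) at -1.47 (SE 0.43, adjusted p = 0.148), from 7, 11 and 4 counts in KO libraries, against 14, 21 and 28 counts in WT libraries, so that few reads stand behind it. Pdgfrb (a receptor of pericytes and stellate cells) had 3.19, 6.84 and 4.52 CPM in KO livers, against 8.03, 12.4 and 8.15 CPM in WT livers (-0.98, SE 0.28, adjusted p = 0.135). Fn1, the most abundant member in liver, had 1737, 1862 and 1588 CPM in KO livers, against 1698, 1818 and 1731 CPM in WT livers (-0.02, SE 0.11, adjusted p = 0.966). Fn1 and the hepatocyte markers (8 of 8, summing to 144482 to 168843 CPM in KO livers and 135809 to 171084 CPM in WT livers) overlapped between the groups. Of the 8 hepatocyte markers, 7 were higher in KO (median log2 fold change 0.21) and none was called. Dpp4 (a peptidase of progenitors, also made by hepatocytes) was at -0.19 (SE 0.11).

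Markers of hepatic stellate cells moved with the members. All 8 of 8 markers were lower in KO livers, summing to 91.2, 167 and 124 CPM in KO replicates 1, 2 and 3, against 170, 223 and 178 CPM in WT replicates 1, 2 and 3. The defining marker Lrat had 7.69, 14.3 and 12.3 CPM in KO livers, against 14.97, 19.9 and 11.1 CPM in WT livers, and did not pass (adjusted p = 0.459). Macrophage markers (11 of 16 lower in KO) summed to 396 to 613 CPM in KO livers and 437 to 592 CPM in WT livers. Endothelial markers (9 of 10 lower in KO) summed to 127 to 164 CPM in KO livers and 143 to 177 CPM in WT livers. The median log2 fold change was -0.56 for the stellate list, -0.21 for the endothelial list and -0.06 for the macrophage list. All 7 tested mesothelial markers were lower, and Upk3b among them fell (-2.41, SE 0.41, adjusted p = 0.0311 by edgeR), the list summing to 188 to 220 CPM in KO livers and 217 to 269 CPM in WT livers. The mesothelial list shares Krt8, Krt18 and Krt19 with the mammary epithelial list, so its sum is not particular to mesothelial cells. The mammary list summed to 184 to 220 CPM in KO livers and 211 to 256 CPM in WT livers. Msln had 0.51 to 2.18 CPM in KO livers and 3.38 to 5.37 CPM in WT livers. The part of stellate or mesothelial cells in the members' results was not tested.

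**Figure D4:**
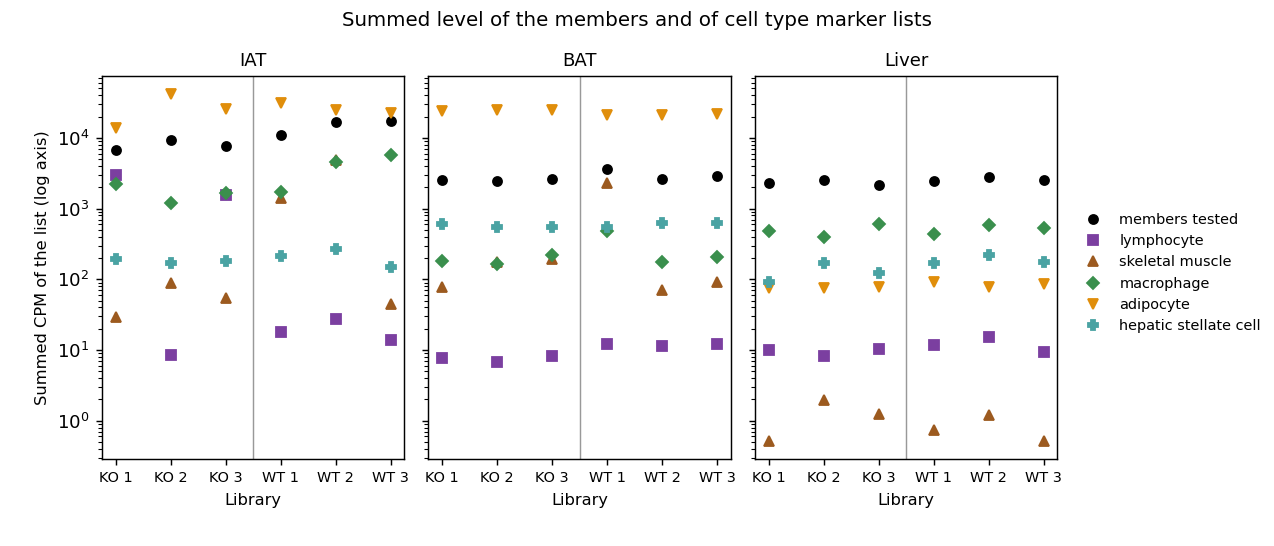
Summed level (vertical axis, CPM, log scale) of the members tested and of 5 cell type marker lists in each IAT, BAT and liver library, with KO libraries left of WT libraries. Lymphocyte markers reach 2989 and 1534 CPM in IAT KO replicates 1 and 3, muscle markers reach 2289 CPM in BAT WT replicate 1, and stellate cell markers in liver run from 91.2 to 167 CPM in KO and from 170 to 223 CPM in WT.

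Across the 3 peripheral tissues, 30 members were tested in each of IAT, BAT and liver. Of these, 22 (73.3%) had a lower KO mean in all 3, against 16.8% of the 11319 genes tested in all 3, and 0 had a higher KO mean in all 3, against 18.6% of genes. Groups that did not overlap, with KO below WT, were found in at least 2 of the 3 tissues for 16 members (53.3%, against 4.65% of genes). For 3 members, Tnxb, Efemp1 and Lama2, this held in all 3 tissues (10%, against 0.512% of genes). Without IAT KO replicate 3 these counts were 23 (76.7%, against 16.4% of genes), 16 (53.3%, against 4.7%) and 3 (10%, against 0.512%), and without BAT WT replicate 1 they were 18 (60%, against 15.7%), 16 (53.3%, against 5.58%) and 5 (16.7%, against 0.643%), Lamc3 and Pdgfrb being added. The counts of groups that did not overlap can only stay or rise when a library is left out. The members were chosen with earlier results of these data known, so these shares describe the set and are no independent support. Lama2, not yet given for BAT and liver, had 15.7, 12.7 and 16.6 CPM in KO BAT libraries, against 37.2, 17.5 and 19.7 CPM in WT BAT libraries (-0.73, SE 0.28, adjusted p = 0.236). In liver Lama2 had 1.65, 2.24 and 0.90 CPM in KO libraries, against 2.95, 2.53 and 3.03 CPM in WT libraries (-0.82, SE 0.30, adjusted p = 0.230). In the edgeR fits of 6 libraries without a replicate block and with the filter on low counts, none of these 3 genes was called in any tissue. Other edgeR fits called all 3 in IAT (all 24 libraries), Tnxb in liver (no filter) and Tnxb and Efemp1 in liver (replicate block). The mice behind the tissues may be the same 3 per genotype.

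**Figure D5:**
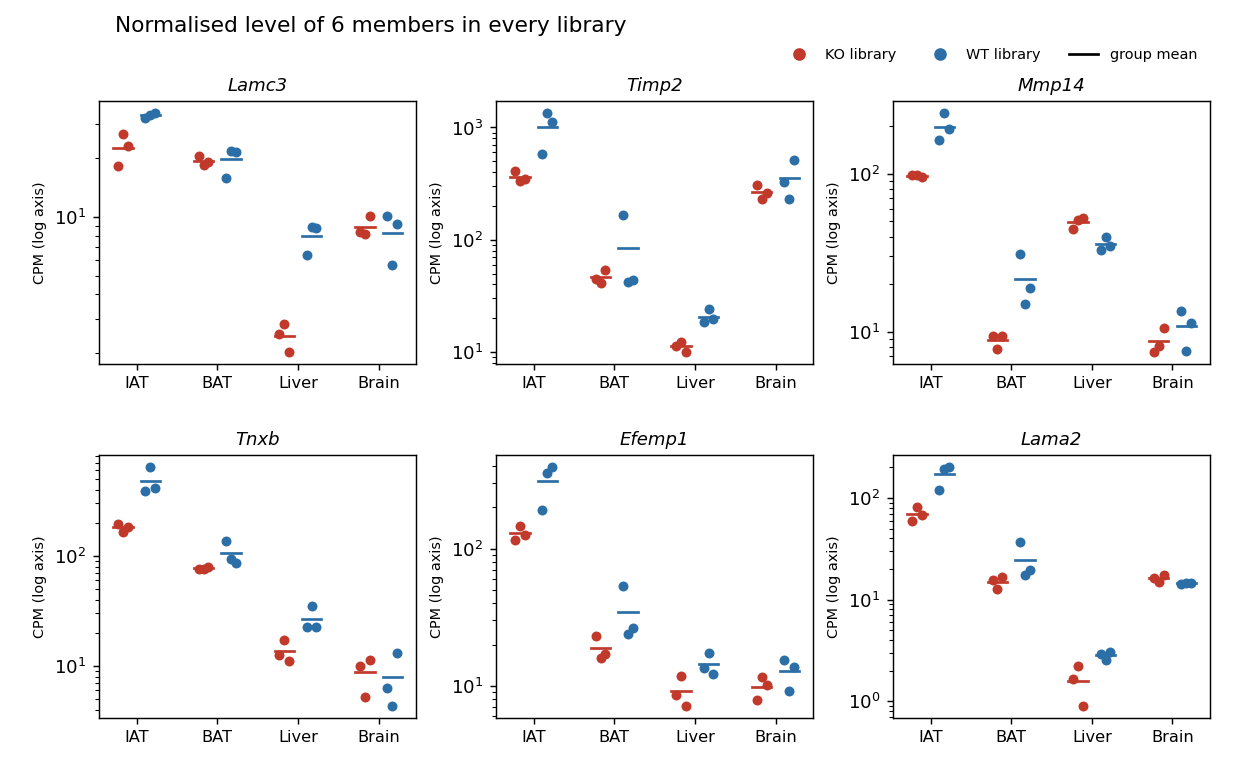
Level in every library (vertical axes, CPM, log scale) of 6 members in IAT, BAT, liver and brain, with KO libraries (red) left of WT libraries (blue) and lines at the group means. Tnxb, Efemp1 and Lama2 have all KO points below all WT points in IAT, BAT and liver, Lamc3 lies at 2.03 to 2.82 CPM in KO livers and 6.41 to 8.88 CPM in WT livers, and of these tissues Mmp14 has all KO points above all WT points in liver alone. CPM was scaled within each tissue, so levels are not compared between tissues here.

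Whether the KO change itself differed between IAT, BAT and liver was tested in 1 fit of all 24 libraries. Of 16169 genes, 129 were called (0.798%), among them the members Mmp14 (adjusted p = 0.0266) and Lamc3 (adjusted p = 0.0285). For Mmp14 the KO change in liver was above that in IAT by 1.497 on the log2 scale (SE 0.30), and the change in BAT minus that in liver was -1.76 (SE 0.32). For Lamc3 the change in BAT minus that in liver was 1.69 (SE 0.29), and the change in liver minus that in IAT was -1.15 (SE 0.29), which alone did not pass (adjusted p = 0.0632). Lamc3 in BAT had 20.6, 18.4 and 19.1 CPM in KO libraries, against 15.8, 21.8 and 21.6 CPM in WT libraries, and the groups overlapped. In IAT it had 18.2, 26.6 and 23.2 CPM in KO libraries, against 32.4, 33.3 and 34.0 CPM in WT libraries. Without IAT KO replicate 3 the adjusted p was 0.0658 for both genes, and in a fit of the 18 libraries of these tissues alone it was 0.0592 for Mmp14 and 0.0642 for Lamc3.

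In the brain, where mesenchymal cells are confined to vessels and meninges, the members were split evenly. Of the 33 tested (Mfap5, Mmp3, Timp1 and Pi16 were too low), 17 were lower and 16 higher in KO, with a median of -0.04, against 50.4% of genes lower, and no member was among the 7 called genes (0.0487%, with 0.0139% called higher and 0.0348% lower). At an unadjusted p under 0.05, 1 member was lower and 1 higher, against 3.14% and 3.43% of genes (6.58% in either direction). Every KO library was above every WT library for Thbs2, at 10.9, 10.499 and 11.6 CPM in KO brains, against 8.49, 8.78 and 7.996 CPM in WT brains (0.38, SE 0.12, adjusted p = 0.737), and for Lama2 (background 6.53%). For 1 member, Loxl1, every KO library was below every WT library, at 0.685, 0.880 and 0.628 CPM in KO brains, against 1.64, 1.35 and 1.15 CPM in WT brains (-0.91, SE 0.30, adjusted p = 0.749; background 5.99%). Dcn had 15.7, 10.1 and 10.99 CPM in KO brains, against 11.9, 6.89 and 62.9 CPM in WT brains. Meningeal and choroid plexus markers (8 of 8) summed to 59.7 to 185 CPM in KO brains, against 105, 96.9 and 615 CPM in WT brains 1, 2 and 3, the last being the library with the high Dcn.

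Against the brain, the KO change in IAT was lower for Timp3 (a tissue inhibitor that binds to the matrix), with IAT minus brain at -0.97 (SE 0.21, adjusted p = 0.0365), and for Lama2 at -1.47 (SE 0.35, adjusted p = 0.0473), among 223 genes called (1.38%). Neither was called without IAT KO replicate 3, where Timp3 was at -0.95 (adjusted p = 0.0949) and Lama2 at -1.45 (adjusted p = 0.111), and 3 genes were called (0.0184%). The KO change in liver minus that in brain was called for Lamc3 at -1.82 (SE 0.30, adjusted p = 0.0151), among 10 genes called (0.0618%), and also without IAT KO replicate 3 (adjusted p = 0.0270, 0.0551% of genes called). No member was among the 3 genes called for BAT minus brain (0.0186%).

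Other matrix genes were read from wider lists chosen by function, with earlier results of these data known. In liver 1 of 15 fibrillar and beaded collagens passed, Col1a1, which fell to 3.90 ± 0.92 CPM in KO livers, against 9.65 ± 2.59 CPM in WT livers (SD, n = 3 each; log2 fold change -1.31, SE 0.23, adjusted p = 0.0403), and 14 of the 15 were lower. Of the 19 tested further glycoproteins and proteoglycans, 17 were lower and 1 passed, Fmod (fibromodulin), which averaged 2.01 ± 0.44 CPM in KO livers and 4.98 ± 1.10 CPM in WT livers (-1.31, SE 0.24, adjusted p = 0.0422). Of the 19 genes of TGF-beta signalling, 16 were lower and 1 passed, the receptor Tgfbr2, which averaged 12.5 ± 1.89 CPM in KO livers and 21.1 ± 1.82 CPM in WT livers (-0.75, SE 0.13, adjusted p = 0.0311). Among the 19 tested integrins and matrix receptors, 14 were lower and 1 passed, Itga8 (integrin α8, a chain made by stellate cells), at 2.74 ± 0.52 CPM in KO livers and 6.18 ± 1.21 CPM in WT livers (-1.18, SE 0.21, adjusted p = 0.0384).

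In liver none passed among the 12 tested further elastic fibre genes (10 lower), the 6 further laminins (5 lower), the 14 further proteases and inhibitors (11 lower) and the 17 genes of fibroblasts and adipose progenitors (12 lower). In BAT no gene of these lists passed. The collagens came closest, with 14 of 15 lower and 13 lower at an unadjusted p under 0.05, led by Col3a1, which averaged 167 ± 26.2 CPM in KO BAT and 349 ± 78.9 CPM in WT BAT (-1.06, SE 0.18, adjusted p = 0.0614). In IAT no gene of these lists passed. There 25 of 27 tested genes of fibroblasts and adipose progenitors were lower (median -0.82), led by Pcolce2, a collagen-processing enhancer, which averaged 46.1 ± 0.84 CPM in KO IAT and 155 ± 51.6 CPM in WT IAT (-1.74, SE 0.26, adjusted p = 0.165, with -1.73 when KO replicate 3 was left out), and 12 of 19 TGF-beta signalling genes were higher (median 0.12). Without KO replicate 3 these lists had 25 of 27 lower (median -0.79) and 13 of 19 higher (median 0.13). Itga8 and Tgfbr2 are also expressed by cells other than stellate cells, and the lists share some genes, Pcolce2 standing in 2 of them.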

How the data were processed

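RNA was extracted with a Qiagen RNeasy kit and made into libraries with a SMARTer mRNA kit, per the labels' protocols. Build GRCm38.p6 is named in the submitters' processing notes, beside RSEM 1.3.1, DESeq2 1.4.5 and the aligner Bowtie2 2.3.4.3. The gene annotation, read filters and strand setting were not given in the sources used here. The role of each tool is not stated. The authors deposited expected counts, which are estimates and need not be whole, and TPM per gene and library. The authors also deposited FPKM and a normalized signal (scaled counts) per library, 48 columns that were not used. Members and gene lists were chosen with earlier results of these data known. All 37 members are accounted for. Those that passed were named with values per library, topped up by unadjusted p to 8 per tissue, with up to 4 genes of each wider list per tissue by p.

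Expected counts were rounded and tested per tissue with edgeR 4.0.16 in R 4.3.3 (filterByExpr, TMM, quasi-likelihood F-test), and p-values were adjusted by Benjamini-Hochberg over all genes tested, with a threshold of 0.05. CPM were scaled by TMM within a tissue, so levels across tissues are given in TPM. The difference of KO changes between tissues was a 2-degree F-test in 1 fit of 24 libraries. Alternatives used DESeq2 1.42.0, limma 3.58.1, other filters and scalings, and libraries left out. The tests were checked on simulated data. Nothing states that libraries of 1 number in different tissues come from 1 mouse, and p-values measure the spread between these libraries. Of the 37 members, 12 share exon sequence with another gene.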

Additional observations from a re-analysis of the deposited data

Results flagged for a closer look

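In the fit of all 24 libraries, the test of the difference itself called 2 members whose KO change differed between IAT, BAT and liver. For Lamc3 the adjusted p was 0.0285, with a fall in liver (log2 fold change -1.71) and values of -0.03 in BAT and -0.55 in IAT, neither of which passed alone. For Mmp14 the adjusted p was 0.0266, with 0.47 in liver, -1.30 in BAT and -1.03 in IAT, none of which passed alone. These fold changes and the calls on them, for both genes, are from the fits of 6 libraries per tissue. In the fit of all 24 libraries, Mmp14 was called lower in IAT and in BAT. Both calls were lost without IAT KO replicate 3 (adjusted p = 0.0658 for each), in the fit of 18 libraries (0.0642 for Lamc3 and 0.0592 for Mmp14) and with a replicate block (0.113 for Lamc3 and 0.0599 for Mmp14).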

How the results depend on the processing

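Counts of called genes and members depended on the tool. In IAT, where edgeR called none, DESeq2 called 987 genes (7%) and 17 members, and limma-voom 7 genes (0.0497%) and no member. There 1 fit of all 24 libraries called 2573 genes (15.9%) and 20 members. Chosen after seeing the data, DESeq2 without KO replicate 3 called 227 genes (1.59%) and 9 members there. Also chosen so, 1 fit of 23 libraries without that replicate called 1136 genes (6.95%) and 6 members. In BAT, DESeq2 called 467 genes (4.12%) and 5 members, and the 24-library fit 173 genes (1.07%) and 1 member. Without WT replicate 1, chosen after seeing the data, DESeq2 called 295 genes (2.63%) and 3 members, with a member median of -0.13. In liver, no filter on low counts gave 218 genes (1.34%) and 5 members and DESeq2 402 genes (3.26%) and 9 members. In brain, DESeq2 called 56 genes and limma-voom 2. For the difference of KO changes between tissues, a fit of 18 libraries called 0 genes and 0 members and limma-voom 47 genes.

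Leaving out 1 library gave 0 to 1760 genes (up to 12.1%) and 0 to 10 members in IAT. The medians there ran from -1.29 to -0.79, pairs of libraries included. In BAT it gave 2 to 94 genes and medians of -0.71 to -0.13. In liver it gave 58 to 103 genes (0.467% to 0.823%), 1 to 4 members and medians of -0.83 to -0.43. In brain it gave 1 to 9 genes and medians of -0.17 to 0.16. The test between tissues then called 8 to 3085 genes and 0 to 5 members. The 3085 genes came without IAT KO replicate 2. Dcn in brain ran from -1.61 to 0.38, with 0.38 found without WT replicate 3. Over IAT, BAT and liver together, 3 members had groups that did not overlap in all 3 tissues, and 5 without BAT WT replicate 1 (chosen after seeing the data). This last count cannot fall when a library is left out. The cause of the other changes given here was not tested.

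Whether replicate numbers pair the samples was not settled. Correlations of same-numbered KO and WT libraries ran from -0.26 to 0.41. The WT library of the same number was the closest for KO replicate 1 in liver and KO replicates 2 and 3 in brain. For the other KO libraries it was not. With a replicate block, 0 genes were called in IAT, 1 in BAT, 228 genes (1.85%) and 9 members in liver, and 4 genes in brain. The test between tissues then called 6 genes and 0 members. Lamc3 in liver was called under every setting run.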
